A study of Homo sapiens with 6 samples.

Results

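MDM2, MDM4, CDKN2A, PPM1D, SESN1 and CCNG1, 6 genes of the p53 circuit, were followed in CELF1 RIP-Seq data of melanoma cells. They are 6 of 13475 protein-coding genes with at least 1 exonic bin in the peak lists. A bin was assigned to a gene when its centre lay in an exon (GRCh37) and the transcript strand was the reverse of the strand listed. The 6 genes held 2144 such bins of 20 bp, of which the SK-Mel-103 sample listed 729. Of the UACC-62 samples, replicate 1 listed 613 and replicate 3 listed 729. Triplets of values keep this order of samples.

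The protein p53 halts the cell cycle or starts cell death after damage, and its level is held low by a feedback loop. MDM2 is the ubiquitin ligase that marks p53 for degradation and is itself switched on by p53, and MDM4 is its relative that binds and silences p53. CDKN2A encodes p16, an inhibitor of the cyclin D kinases, and ARF, an inhibitor of MDM2. PPM1D (a phosphatase that turns the damage signal off), SESN1 (a sestrin, which restrains mTORC1) and CCNG1 (cyclin G1, a partner of PP2A) are p53 targets. CELF1, also called CUGBP1, is an RNA-binding protein known for GU-rich elements in 3′ UTRs, where it acts on mRNA decay and translation.

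CELF1 was immunoprecipitated with one antibody from SK-Mel-103 cells and from UACC-62 cells, 2 established human lines of melanoma, and the RNA recovered (IP) was set against RNA of the same line (input). SK-Mel-103 had 1 IP and UACC-62 had 2, named replicates 1 and 3, each with its own input. The cells carried no treatment that differed between samples. Nothing in the labels says whether the UACC-62 replicates came from separate cultures, and their spread may be technical.

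The lists held 780750 to 862731 bins per sample, with 10958459 to 14436573 IP reads and 8453517 to 10161917 input reads. Only bins that had passed the peak caller were listed, so reads of a gene outside them are unknown and each value below describes the listed bins. A bin without an input read needed at least 6, 5 and 4 IP reads to be listed. Of 7 melanocyte lineage markers, 6 had a listed bin in at least 1 sample and 3 (MITF, SOX10 and MLANA) in all 3. SOX10, a lineage transcription factor, had 864, 2115 and 1080 input reads. MITF, the master factor of the lineage, had 18, 6036 and 5000, and MLANA, a melanosome protein, had 18, 826 and 926. Both thus had few listed input reads in SK-Mel-103, and their reads outside the listed bins are unknown.

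Of these genes, MDM2 held the bins with the strongest IP signal in all 3 samples. They are given as RNA, 5′ to 3′, with every UGU, the core of the GU-rich elements, in capitals. The first 6 are the MDM2 bins whose IP reads, relative to the sample's total, were highest in their weakest sample, at least 200 nt apart.
MDM2 chr12:69234541-69234560 (+): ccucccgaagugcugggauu
MDM2 chr12:69236901-69236920 (+): auuuuggaaaacaaUGUaug
MDM2 chr12:69235441-69235460 (+): gguucccagccuagguuuca
MDM2 chr12:69233321-69233340 (+): gaaagugaagacuauucuca
MDM2 chr12:69233781-69233800 (+): gaauagugaauacuuacuau
MDM2 chr12:69237881-69237900 (+): acaUGUuuauggguuauuaa
The next 2 are MDM2 bins that held UGUUUGU or UGUGUGU, and the last is, by the same weakest-sample rule, the highest MDM4 bin listed in all 3 samples, shown for contrast.
MDM2 chr12:69236361-69236380 (+): gauaUGUuUGUaaauacaga
MDM2 chr12:69222641-69222660 (+): UGUGUGUaauaagggagaua
MDM4 chr1:204523581-204523600 (+): uagauuaggaacuagcuaug

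MDM2 (ENSG00000135679, chr12:69201957-69239324, plus strand) was the only one of the 6 genes with a peak bin common to the 3 IP samples, a peak being a bin with more than 30 IP reads and a p-value under 0.05. Every listed bin already had a p-value under 0.05 (highest 0.0494, 0.0499 and 0.0455). Only the read filter thus made a listed bin a peak, and a peak need not hold more IP than input reads. Of all protein-coding genes with a listed bin, 13.1% had a common peak bin. MDM2 had 131 of them, which placed it 16th of 1766 genes with one, beside a median of 6 bins per gene. The listed exonic bins of MDM2 held 9826, 31549 and 37521 IP reads, against 4269, 9047 and 7369 of the input. IP reads thus exceeded input reads in each sample, and both kinds were more numerous in UACC-62.

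The log2 IP over input of MDM2, each column divided by its total, was 0.83 in SK-Mel-103 (95% counting interval 0.78 to 0.88) and 1.65 ± 0.0040 (SD, n = 2) in UACC-62. These intervals are Clopper-Pearson intervals of the IP share of the reads and cover counting error only. Among 5240 genes with at least 100 input reads in each sample, 88.0%, 94.8% and 94.4% lay below MDM2. The difference between the lines was -0.82 (SK-Mel-103 minus UACC-62), larger than the spread of the UACC-62 replicates, but with 1 SK-Mel-103 sample it could not be tested. The median of the same 5240 genes was -0.49, -0.99 and -0.75.

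**Figure D1:**
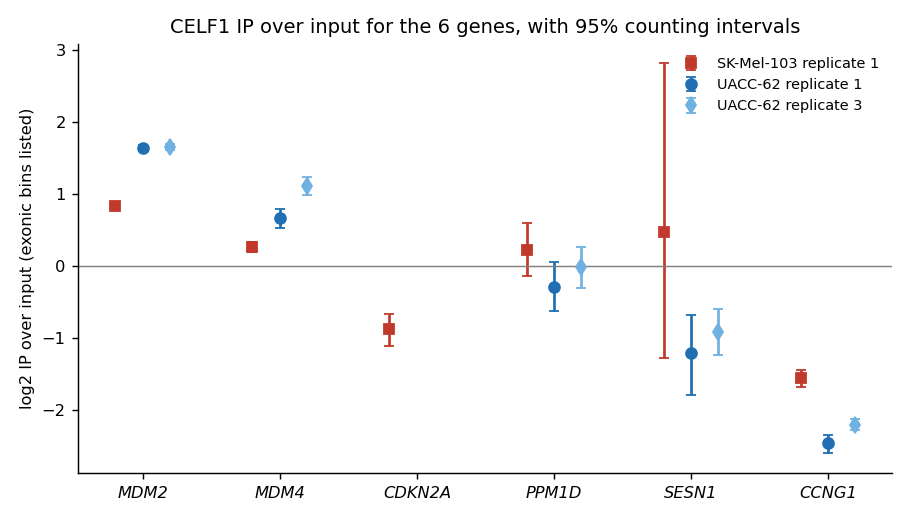
Log2 IP over input of the listed exonic bins of the 6 genes, 1 point per IP sample, with 95% counting intervals as bars; the grey line marks 0. MDM2 and MDM4 lie above 0 in all 3 samples, CCNG1 lies below -1.5 in all 3, and CDKN2A has a point only for SK-Mel-103.

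Most MDM2 peak bins were found in both UACC-62 samples. Replicate 1 had 235 peak bins and replicate 3 had 240, and 227 of the 248 found in either were found in both (91.5%). Without the read filter, 92.8% of the MDM2 bins listed in either replicate were listed in both, beside 47.0% for MDM4 and 69.1% for CCNG1. The shared part of peak bins over all genes was not computed, and the part of read number in the MDM2 share was not tested. SK-Mel-103 had 132 MDM2 peak bins, and 131 of these were the common ones. The strongest bin of SK-Mel-103, chr12:69234541-69234560, held 176 IP against 27 input reads there, 664 against 40 in UACC-62 replicate 1 and 386 against 22 in replicate 3.

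IP reads of MDM2 covered its coding sequence as well as its 3′ UTR, with most in the latter. In the canonical transcript (11 exons, 3′ UTR of 5698 nt), the 3′ UTR took 79.8% of the IP reads (Wilson 95% interval 79.0 to 80.6), 84.4% (84.0 to 84.8) and 81.7% (81.3 to 82.0). The 3′ UTR was also the longest part, with 285 bins beside 46 coding bins before the last exon and 28 in it. It held most of the input reads too, 3138, 6733 and 5616, beside 582, 1143 and 821 in the coding part before the last exon. Log2 IP over input of the 3′ UTR was 0.95, 1.83 and 1.75. The coding part before the last exon had 0.13, 0.69 and 1.23, below the 3′ UTR in each sample.

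The signal was not even along the 3′ UTR of MDM2. The window from 500 to 1000 nt after the stop codon had the highest log2 IP over input of all 500-nt windows in each sample, at 2.52, 4.15 and 3.38. Of its 25 bins, 20 had 5 or more copies of their sequence in the genome, and the part of this in the values was not tested. Its input was low, with 100, 150 and 100 reads, against 482, 881 and 712 in the window from 1500 to 2000 nt. From 1500 to 4500 nt the windows lay between 0.29 and 1.03 for the SK-Mel-103 sample, between 1.17 and 1.75 for UACC-62 replicate 1 and between 1.60 and 1.91 for replicate 3. Past 4500 nt reads were few in IP and input alike: the window from 4000 to 4500 nt held 857, 2413 and 3165 IP reads and the next one 67, 200 and 272.

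**Figure D2:**
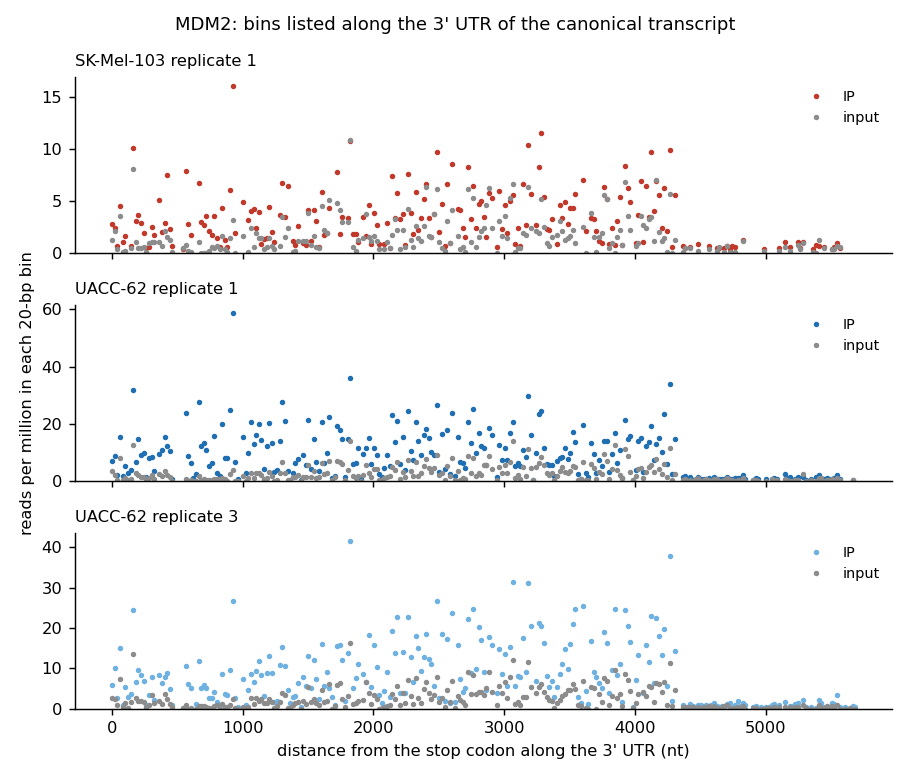
IP (coloured) and input (grey) reads, scaled to the total of the sample (RPM), in each listed 20-bp bin of MDM2, by distance from the stop codon in nt along the 3′ UTR, 1 panel per sample with its own vertical scale. IP points stand above input points over most of the UTR, and both fall to near 0 past about 4500 nt.

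Parts of MDM2 occur elsewhere in the genome. Of its 414 exonic bins, 274 had no other copy of any 32-nt stretch over their centre, 80 had 2 to 4 copies and 60 had 5 or more. The bins with a single copy held 68 of the 131 common peak bins, with log2 IP over input of 0.69, 1.42 and 1.51. The bins with 5 or more copies held 18 common peak bins and had higher values, 1.80, 3.27 and 2.47. The bin at 924 nt after the stop codon, the highest of the SK-Mel-103 sample and of UACC-62 replicate 1, was one of the latter. In UACC-62 replicate 3 the highest, with 599 IP against 144 input reads, lay at 1824 nt and had 2 copies. For stretches with at most 4 copies, the largest match elsewhere, on chromosome 11, held 0, 5 and 21 listed IP reads over 10 kb. The other places of stretches with 5 or more copies were not looked up. A processed pseudogene on the same strand shared 22 bins of MDM2 with 16 of the common peak bins, and its reads cannot be told apart from those of MDM2.

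Few MDM2 peak bins held a GU-rich 7-mer, and few peak bins did over all genes. UGUUUGU or UGUGUGU, searched on the transcript strand only and counted also where they overlap, stood in 4 of the 131 common bins (3.05%, Wilson 95% interval 1.19 to 7.59), against 1.31% of 25925 common 3′ UTR bins of all protein-coding genes. The 131 bins were not limited to the 3′ UTR. Among the 4, chr12:69222641-69222660 is coding in the canonical transcript. The whole canonical 3′ UTR of MDM2 held 1.05 of these 7-mers per kb, against 0.696 for the 3′ UTRs of all protein-coding genes together. In MDM2 they were 6 UGUUUGU and 0 UGUGUGU. Most of the 6 overlapped in a single run of UGUU repeats, in the bins at 664 and 684 nt after the stop codon. The sequence there had 665 copies in the genome, so the value per kb rests largely on a repeat. The longer GU-rich elements of the study were not searched. UGU stood in 41 of the common MDM2 bins (31.3%, 24.0 to 39.7) and in 39.6% of the common 3′ UTR bins of all genes. CUG stood in 31 (23.7%, 17.2 to 31.6) and in 32.9% of these sets. Over all 285 bins of the canonical 3′ UTR of MDM2, peak or not, UGU stood in 33.0% and CUG in 28.4%. Of the 4 bins, 2 were adjacent and lay in sequence with 5 or more copies in the genome. Another, chr12:69236361-69236380, was a single-copy bin with 36 IP against 9 input reads, 150 against 27 and 129 against 32.

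MDM4 (ENSG00000198625, chr1:204485507-204527248, plus strand) was above 0 in all 3 samples as well, at lower read numbers. It held 3510, 1404 and 2108 IP reads, against 2257, 796 and 602 of the input. Its log2 IP over input was 0.26 (0.19 to 0.34) in SK-Mel-103, while UACC-62 had 0.88 ± 0.32 (SD, n = 2). Thus 2 of the 6 genes, MDM2 and MDM4, were above 0 in all 3 samples, beside 31.6% of the 10319 protein-coding genes listed in all 3. Of the 6, CDKN2A was not listed in UACC-62 and so could not be counted on either side.

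No MDM4 bin was a peak in all 3 samples. SK-Mel-103 had 13 peak bins, UACC-62 replicate 1 had 2 and replicate 3 had 0. Without UACC-62 replicate 3, MDM4 joined MDM2 and 2 genes had a common peak bin. The highest MDM4 bin of SK-Mel-103 held 58 IP against 12 input reads. The bin listed in all 3 that was highest in its weakest sample, chr1:204523581-204523600, held 36 IP against 23 input reads, 36 against 12 and 27 against 3. It lay 4783 nt after the stop codon, in the window from 4500 to 5000 nt, where log2 IP over input was 1.14, 1.10 and 1.66. This window was the highest of the 17 in SK-Mel-103 but not in the UACC-62 replicates. There the window from 5500 to 6000 nt, with 16 and 17 IP reads, reached 1.35 and 2.47. Of its 25 bins, 18 had 5 or more copies of their sequence in the genome, and neither UACC-62 replicate listed a single-copy bin in it.

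**Figure D3:**
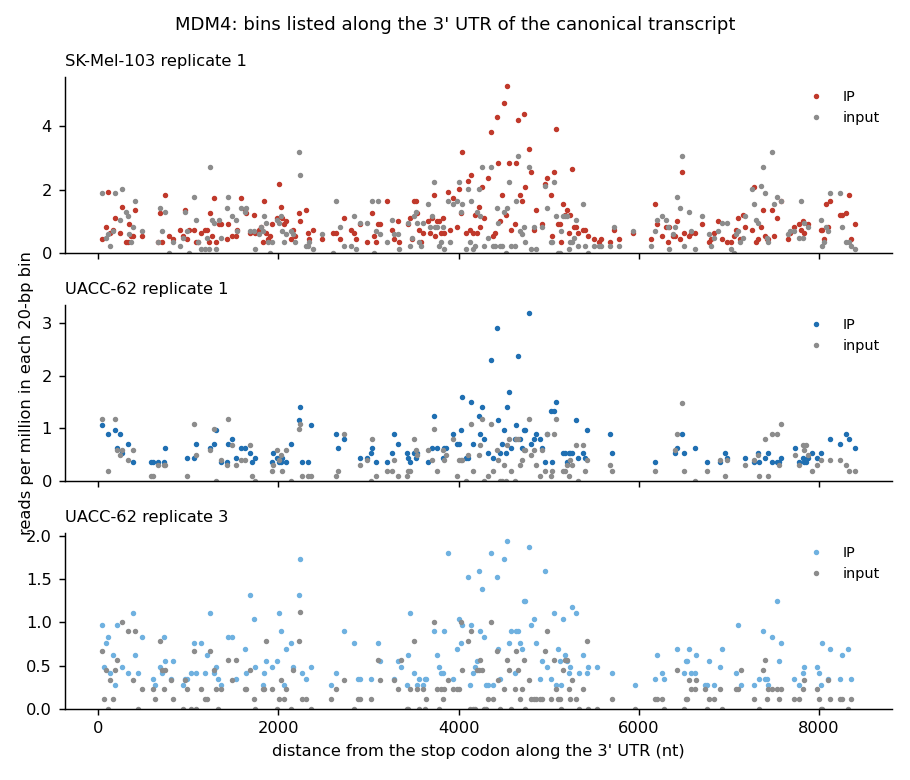
IP (coloured) and input (grey) reads, scaled to the total of the sample (RPM), in each listed 20-bp bin of MDM4, by distance from the stop codon in nt along the 3′ UTR of the canonical transcript, 1 panel per sample. The tallest IP points of SK-Mel-103 stand between 4000 and 5500 nt, where the windows held 415, 505 and 262 IP reads.

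CDKN2A (ENSG00000147889, chr9:21967751-21995300, minus strand) was listed only in SK-Mel-103. There 26 of its 193 exonic bins were listed, holding 288 reads of the IP and 410 of the input, with log2 IP over input of -0.88 (-1.11 to -0.66). Neither UACC-62 sample listed a bin, which leaves its level there unknown. MTAP, a neighbour on the other strand named after its values were seen, held 266 and 304 listed bins in the same UACC-62 samples, while CDKN2B held 0 in both and 1 in SK-Mel-103. Of the CDKN2A bins 2 were peaks in SK-Mel-103, where 22.7% of all genes had one. Both held fewer IP than input reads, 57 against 118 and 46 against 54.

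PPM1D (ENSG00000170836, chr17:58677554-58743641, plus strand) was sparse. It held 160, 139 and 267 IP reads, against 106, 152 and 167 of the input, and no peak bin. Log2 IP over input was 0.22 (-0.14 to 0.59), -0.29 (-0.63 to 0.05) and -0.02 (-0.31 to 0.27), so that every counting interval held 0.

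SESN1 (ENSG00000080546, chr6:109305512-109416049, minus strand) had the fewest IP reads over the 3 samples together. Its listed bins held 8, 42 and 150 IP reads, against 4, 88 and 174 of the input. The UACC-62 mean was -1.06 ± 0.21 (SD, n = 2), whereas the SK-Mel-103 value of 0.47 had an interval from -1.27 to 2.81. No bin was listed in all 3 samples.

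CCNG1 (ENSG00000113328, chr5:162864575-162873157, plus strand) was the gene with the lowest ratio. Its listed bins held 850, 573 and 1556 IP reads, against 1934, 2838 and 4408 of the input. Input thus exceeded IP in every sample, with log2 IP over input of -1.56 (-1.68 to -1.44) in SK-Mel-103 and a mean of -2.33 ± 0.19 (SD, n = 2) in UACC-62. Only 4.45%, 4.71% and 3.24% of the 5240 genes lay lower. CCNG1 alone of the 6 was below 0 in all 3 samples, beside 43.2% of the 10319 genes, and CDKN2A, listed only in SK-Mel-103, could not be counted. It was well represented in the input, at an input level of 74.3, 90.7 and 161 RPKM (listed input reads per kb of exon, scaled to the input total), next to 61.0 to 108 for MDM2 and 24.3, 7.13 and 6.16 for MDM4. SK-Mel-103 had 1 CCNG1 peak bin and UACC-62 replicate 3 had 7, none of them shared. The SK-Mel-103 peak held 40 IP against 26 input reads. In UACC-62 replicate 3 the peaks with the most IP reads, 54 each, held 107, 152 and 123 input reads.

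**Figure D4:**
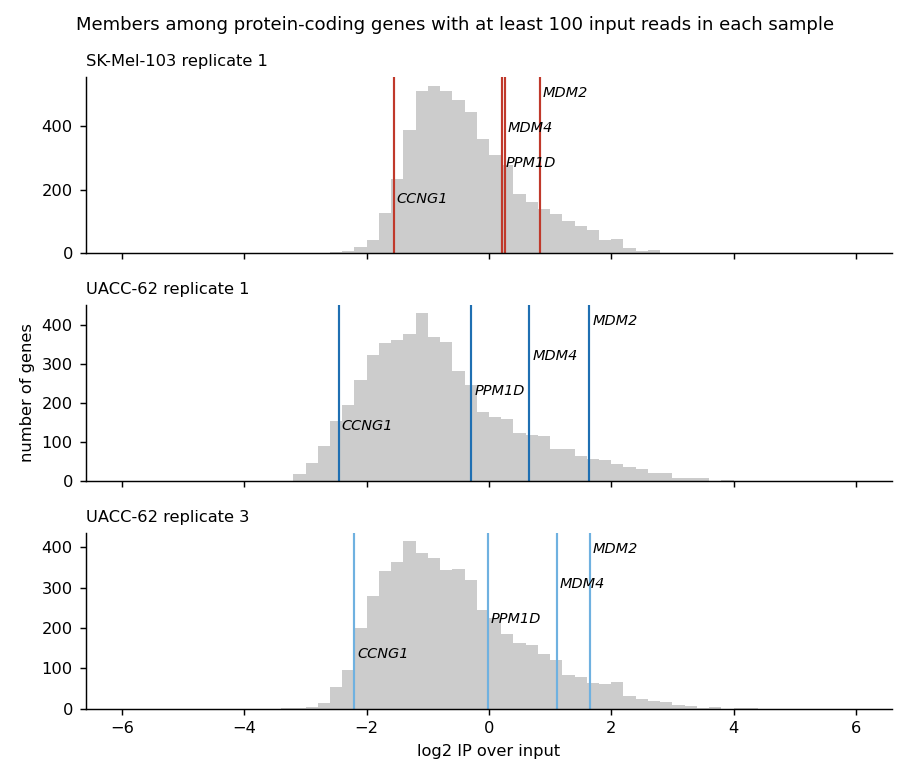
Number of protein-coding genes by log2 IP over input, for 5240 genes with at least 100 input reads in each sample, 1 panel per sample; coloured lines mark the 4 members among them. MDM2 stands in the upper tail and CCNG1 in the lower tail of each panel, and PPM1D lies between -0.29 and 0.22.

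Taking the 6 genes as one, 3′ UTR bins of any transcript held 95.5%, 98.2% and 97.1% of their exonic IP reads, beside 79.8%, 83.6% and 82.9% over all protein-coding genes. Without MDM2 the values were 89.5%, 88.4% and 82.2%. In the annotation 66.5% of their exonic bins are 3′ UTR, against 45.9% over all genes. These shares depend on the gene model, and with the canonical transcript alone SK-Mel-103 had 80.2% and UACC-62 82.7%. The shares over all genes above are for any transcript and cannot be set beside these.

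Other genes of the circuit, like protein-coding genes at large, were spread to both sides. Of the 10319 genes listed in all 3 samples, 31.6% were above 0 and 43.2% below 0 in all 3. Of 17 regulators of p53, 2 were above 0 and 9 below 0 in all 3 samples, with medians of -0.37, -0.64 and -0.79 beside -0.05, -0.40 and -0.20 over the 10319 genes. ATM, the kinase that signals DNA breaks, had 0.99, 1.16 and 1.52, and HIPK2, a kinase of p53, had 0.70, 0.97 and 1.26. EP300, an acetyltransferase of p53, had 0.37, 0.72 and -0.08. RPL5 and RPL11, ribosomal proteins that bind MDM2, had -1.73, -2.64 and -2.41 and -1.86, -2.73 and -2.29, and NPM1 had -0.52, -1.60 and -0.91. These 3 had common peak bins although their ratio over all listed bins was below 0.

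Of 31 p53 targets, 23 were listed in all 3 samples, with 7 above 0 and 11 below 0 in all 3. These counts are near the shares over all genes, 31.6% and 43.2%. The medians of the targets were -0.18, -0.39 and -0.43. ZMAT3, an RNA-binding zinc finger protein, had 1.57, 1.59 and 1.78 with 61 common peak bins, and TIGAR, a regulator of glycolysis, had 1.05, 1.84 and 1.79 with none. CDKN1A, the cyclin kinase inhibitor p21, had 0.51, 0.24 and 0.70. TRIAP1 had -0.92, -2.14 and -1.53, PHLDA3 had -1.11, -1.91 and -1.67, and RPS27L had -1.53, -2.74 and -1.89. Of 9 relatives of the members, 6 were listed in all 3 samples, 3 of them above 0 and 1 below. PPM1A, a phosphatase of the PPM1D family, had 1.07, 1.07 and 1.15, PPM1B had 0.25, -0.27 and -0.54, and PPM1G had -1.34, -2.03 and -1.66.

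**Figure D5:**
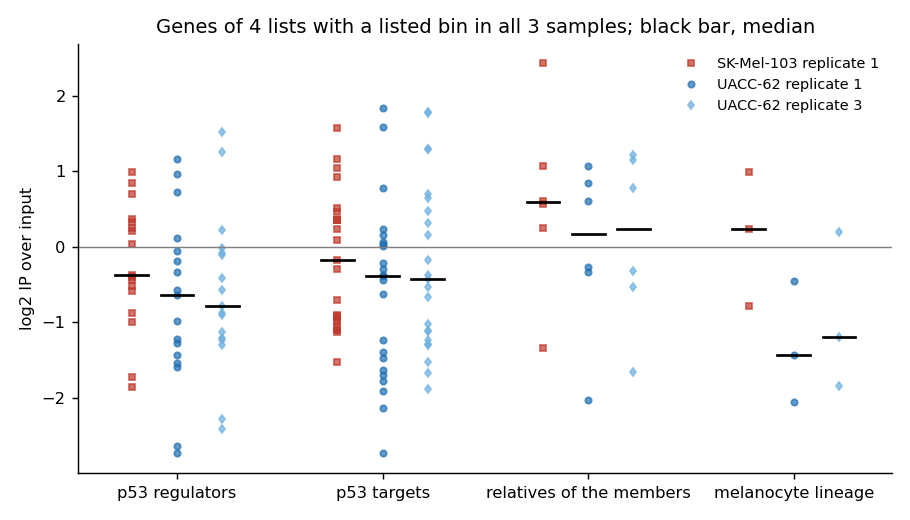
Log2 IP over input of the genes of 4 lists that had a listed bin in all 3 samples, 1 point per gene and sample, with the median as a black bar. Each of the lists of regulators and targets reaches from below -2 to above 1.5.

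The genes nearest to MDM2 over the 3 log2 values, by Euclidean distance among 5239 genes, were TBL1X (0.86, 1.58 and 1.70, distance 0.0870), TM2D3 (0.67, 1.70 and 1.54, distance 0.202) and ZNF609 (0.79, 1.44 and 1.57, distance 0.224). None of them had a common peak bin.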

How the data were processed

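RNA of CELF1 immunoprecipitates and inputs was sequenced in 6 samples, and the 3 inputs were used here only through a column of the IP lists. The authors aligned reads to GRCh37 as a first-strand library (the submitters' processing notes name TopHat2 2.0.4, Bowtie 0.12.7 and SAMtools 0.1.16) and called peaks with Piranha 1.2.1 in bins of 20 bp. Deposited counts are IP reads of each passing bin, not normalized. The p-value deposited by the authors is that of Piranha, called at an FDR of 0.05 by the methods, but the column carries no name that tells raw from adjusted values. The ratio deposited by the authors is the input covariate, from which whole input reads were recovered as multiples of its smallest step. Reads could align to several places, so that repeated sequence is counted with less certainty.

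Groups came from the sample labels. Log2 IP over input used a pseudocount of 1 read and the column totals of listed bins. Exons came from GENCODE (version 44, mapped to GRCh37), with 3′ UTR before coding region. Copies were exact 32-nt matches in GRCh37 on both strands. No test between groups was run, since SK-Mel-103 had 1 IP sample, UACC-62 had 2 and the lists were selected. Named genes were the 6 members, per list the 3 highest and 3 lowest by their weakest sample among genes with at least 100 input reads in each sample, and the 3 genes nearest to MDM2. Members and lists were chosen with earlier results of these data known. Alternatives covered the read filter, p-value, strand, gene model, totals, pseudocount, bins without input and the omission of a UACC-62 replicate. The ratios were tested on simulated data. Tables were made with pandas 2.3.3 and numpy 2.4.6, intervals with scipy 1.17.1, and sequences with pysam 0.24.0, under Python 3.11.15.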

Additional observations from a re-analysis of the deposited data

Results flagged for a closer look

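PPM1D and SESN1 had log2 IP over input of opposite sign in the 2 cell lines, with both UACC-62 replicates on the other side of 0 from SK-Mel-103. For PPM1D the difference, SK-Mel-103 minus the UACC-62 mean, was 0.37, from 0.22 and -0.15, and the counting interval of every sample held 0. For SESN1 it was 1.53, from 0.47 and -1.06, and the SK-Mel-103 value rested on 8 IP and 4 input reads. Neither difference was tested, since SK-Mel-103 had 1 sample.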

How the results depend on the processing

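The count of genes with a common peak bin (1, MDM2) became 4 with no filter on IP reads (CCNG1, MDM4 and PPM1D joined), 0 with the listed strand taken as transcript strand, and ranged from 1 to 2 when a UACC-62 replicate was left out. The count of genes above 0 in all 3 samples (2) became 1 with only bins of more than 30 IP reads, and was 2 without either replicate. The 3′ UTR share of IP reads in SK-Mel-103 (95.5%) became 79.1% with coding region first, 99.0% with more than 30 reads, 57.1% with the longest coding transcript and 80.2% with the canonical transcript, and that of UACC-62 (97.7%) became 82.5%, 99.1%, 31.1% and 82.7%, and ranged from 97.1 to 98.2 without a replicate. MDM2 bins with a 7-mer (4) became 9 with 1 mismatch. Of 100 alternative values of single genes 74 stayed within the spread, 23 moved beyond it with the same sign and 3 changed sign: PPM1D became -0.0025 in SK-Mel-103 with only bins listed in all 3 samples and 0.27 in UACC-62 without division by totals, and CCNG1 became 0.23 in SK-Mel-103 with only bins of more than 30 IP reads. Among the moves, MDM2 fell to 0.46 (from 0.83) in SK-Mel-103 and to 1.12 (from 1.65) in UACC-62 with the longest coding transcript, and MDM4 in SK-Mel-103 rose to 1.14 (from 0.26) with only bins of more than 30 IP reads. The causes were not tested. The spread differed between genes and lines, so these counts do not measure how robust the values are. MDM2 in UACC-62 counted as moved at 1.63 (from 1.65, SD 0.0040) with bins without an input read left out. With the same setting MDM2 in SK-Mel-103, which had 1 sample and no SD, counted as unmoved at 0.79 (from 0.83). The canonical transcript and single-copy bins were alternatives chosen after seeing the data. Leaving out repeats was not run, since the genome given carries no repeat marks. No paired analysis was possible because no test was run between groups and the cell lines share only replicate number 1.

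CDKN2A had no listed bin in UACC-62, and SESN1 and PPM1D held at most 150 and 267 IP reads in a sample. The reasons were not tested. Values of IP over input rest on bins that had passed with input as covariate, so they are not levels of enrichment over whole transcripts.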
